A study of Mus musculus with 2 samples.

Results

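The genes described here are the translation initiation factors (Eif names) and elongation factors (Eef names) of mouse MEL cells. They are the protein-coding rows whose annotated symbol begins with Eif or Eef followed by a digit, leaving out 5 genes by name: the 4 kinases Eif2ak1 to Eif2ak4 and the Y-linked Eif2s3y. Of 63 annotated genes with such names, 62 had a row in both libraries, namely 50 Eif and 12 Eef genes among 21474 protein-coding rows and 69691 rows in all, and Eef1akmt4 matched no row. The rule uses names only and no measured value. MEL is a mouse erythroleukemia line, immortalized and leukemic, whose cells resemble red cell precursors and turn on hemoglobin genes in dimethyl sulfoxide (DMSO). Total RNA was sequenced from cells kept for 5 days in DMSO at 2%, as 2 libraries of this 1 group, named replicate 1 and replicate 2. As both cite the same biosample record, part of their spread may be technical. Untreated cells were not analysed here, so the data give the levels of these genes in the treated cells, the spread between libraries, and no effect of DMSO.

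Initiation factors bring the small ribosomal subunit and the initiator tRNA to the capped end of an mRNA, scan to the start codon and join the large subunit. Elongation factors then deliver each aminoacyl-tRNA to the ribosome and move the ribosome along the mRNA by a codon at a time. Many mRNAs of the translation apparatus begin with a terminal oligopyrimidine (TOP) tract, a C at the cap followed by a run of C and T, through which growth signalling by mTOR sets their translation. Maturing red cells put nearly all of this machinery to work on globin, and heme supply acts on initiation through eIF2.

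Promoter sequences came from a RefSeq table on GRCm38.p6, which held the 250 bases before and 50 bases after annotated starts for 46 of the 62 genes. Those not in it were Eef1akmt1, Eef1akmt3, Eef1d, Eef1g, Eif1a, Eif2b3, Eif3e, Eif3h, Eif3i, Eif3j2, Eif4e1b, Eif4e3, Eif4ebp1, Eif4ebp3, Eif4g2 and Eif6. A C exactly at an annotated start followed by 4 or more C or T was present in 2 of the 46 genes (4.35%), against 3.01% of all 27025 genes of the table. The 30 bases around those starts are shown with the tract in capitals, Eif2s3x at chrX:94212637-94212666 on the minus strand and Eif3f at chr7:108934400-108934429 on the plus strand.
Eif2s3x: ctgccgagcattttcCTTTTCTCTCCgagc
Eif3f: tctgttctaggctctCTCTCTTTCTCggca
Both capital runs hold only C and T. When the tract could begin up to 10 bases to either side of the annotated start, 14 of 46 genes held one (30.4%), against 34.4% of all genes of the table. A tract at annotated starts was thus about as frequent in these 46 genes as elsewhere. The search could not cover Eef1d, Eef1g, Eif3e and Eif3h, which are listed below as TOP mRNAs but had no promoter entry. Of the TOP-listed genes with an entry, Eif3f had a tract at the start. Eef1a1 and Eif4b had one only within 10 bases of it, and Eef1b2 and Eef2 had none in either search. Eif2s3x is not among the TOP-listed genes. Annotated starts need not be the starts used in these cells, which were not measured here.

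The E-box CACGTG, which reads the same on both strands and is bound by MYC, MAX, USF and related factors, was present in the promoters of 12 of the 46 genes (26.1%). It was present in 8.09% of all genes of the table. Of the 6441 genes in it that were protein coding and reached 1 TPM (a share of all transcripts, per length) in both libraries, 12.8% held it. The genes were Eef2, Eef2k, Eif1b, Eif3a, Eif3f, Eif3k, Eif4a1, Eif4e, Eif4g1, Eif4h, Eif5a and Eif5a2. The windows shown, with CACGTG in capitals, are those of the cap-binding complex genes and of the elongation factors eEF2 and eIF5A. They lie at chr3:138527028-138527057 (plus) and chr3:138527192-138527221 (plus) for the pair in Eif4e, chr16:20672661-20672690 (plus) for Eif4g1, chr11:69672595-69672624 (minus) for Eif4a1, chr10:81176576-81176605 (plus) for Eef2, and chr11:69920791-69920820 (minus) for Eif5a.
Eif4e, farther from the start: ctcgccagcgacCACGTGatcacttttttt
Eif4e, nearer to the start: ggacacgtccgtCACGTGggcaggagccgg
Eif4g1: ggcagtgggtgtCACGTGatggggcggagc
Eif4a1: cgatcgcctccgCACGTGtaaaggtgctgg
Eef2: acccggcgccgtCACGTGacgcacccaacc
Eif5a: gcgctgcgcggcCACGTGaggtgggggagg
The motif began 228 and 64 bases before an annotated Eif4e start, 54 before that of Eif4g1, 189 before that of Eif4a1, 43 before that of Eef2 and 178 before that of Eif5a. A match describes letters and is no measured binding site.

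The ETS-type motif CGGAAG, searched on both strands, was in 26 of 46 genes (56.5%), against 18.8% of all genes of the table and 41.9% of those 6441. The erythroid GATA-type motif GATAA, on both strands, was in 4 of 46 (8.70%), namely Eef2k, Eif2b5, Eif3c and Eif3l, against 28.4% and 18.1%. TATAA, searched in the same way over the whole window, was in 6 of 46 (13.0%), against 28.0% and 13.9%. On the plus strand within 50 bases of the annotated start it was in 3 of 46 (6.52%), against 7.97% and 3.23%. The 3 genes, Eef1a1, Eef2 and Eif1, were also abundant, at ranks 6, 66 and 169 among protein-coding genes, and their windows are shown with TATAA in capitals, at chr9:78481685-78481714 (minus), chr10:81176601-81176630 (plus) and chr11:100319943-100319972 (plus).
Eef1a1: tgggggagaacggtaTATAAgtgcggcagt
Eef2: caaccggcgtcgaccTATAAaaggccgggc
Eif1: tcacaggggcggctaTATAAgtgaatacag
TATAA began 15 bases before the annotated start in Eef2, but 25 bases after it in Eef1a1 and 9 bases after it in Eif1.

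Replicate 1 held 65109488 estimated counts and replicate 2 held 90856320. The limit for a gene with 0 counts, set at 3 counts, was 0.0461 CPM (counts scaled to the library total) in replicate 1 and 0.0330 CPM in replicate 2. All 10 erythroid markers reached 1 TPM in both libraries. No myeloid, mast cell, lymphoid or stromal marker did, with summed levels over the 15 genes of those lists between 0.04 and 1.30 TPM per list in replicate 1 and between 0 and 0.67 in replicate 2. Mcpt8 and Col3a1 were among those with 0 counts in both. Of 3 megakaryocyte markers, Pf4 and Itga2b reached 1 TPM. The libraries were not equal in erythroid genes: 7 of 10 markers were at least 1.5-fold higher in replicate 2, against 8.09% of protein-coding genes with 10 or more counts in either library. The markers had a median log2 ratio of 1.35, and the anion exchanger Slc4a1 stood at 16.9 and 115 CPM. The part of this difference in the ratios of the translation factors was not tested. TPM is a share of all rows, short noncoding RNAs included, and over protein-coding genes at 1 TPM or more in both libraries the TPM of replicate 2 was a median of 0.837 times that of replicate 1 (log2 -0.26), while on scaled counts the same genes had a median log2 ratio of 0.04. Levels of different genes are therefore given in TPM, and differences between libraries as log2 ratios of counts scaled by the trimmed mean of M-values (TMM), replicate 2 over replicate 1.

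Nearly all translation factor genes were expressed. Of the 62 genes, 57 (91.9%) reached 1 TPM in both libraries, against 8003 of 21474 protein-coding rows (37.3%). That level was also reached by 20 of 20 cytosolic aminoacyl-tRNA synthetase genes, with medians of 18.2 and 14.9 TPM. It was reached by 81 of 84 ribosomal protein genes (96.4%), with medians of 281 and 270 TPM. The median level of the 62 genes was 17.9 TPM in replicate 1 and 12.8 in replicate 2, against 0.1 and 0.07 over all protein-coding rows. At 10 TPM in both libraries there were 34, and at 100 TPM there were 7: Eef1a1, Eef2, Eef1b2, Eef1g, Eif4a1, Eif5a and Eif1. By mean TPM, 2 stood among the first 100 protein-coding genes, 20 among the first 500 and 29 among the first 1000. Together the 62 genes held 2.91% of nuclear protein-coding TPM in replicate 1 and 2.85% in replicate 2 (2.88% ± 0.0449, SD, n = 2). By estimated counts of the same genes they held 3.42% and 3.69%. Elongation factor names took 1.64% and 1.81% of this TPM, and the more numerous initiation factor names 1.27% and 1.03%.

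**Figure D1:**
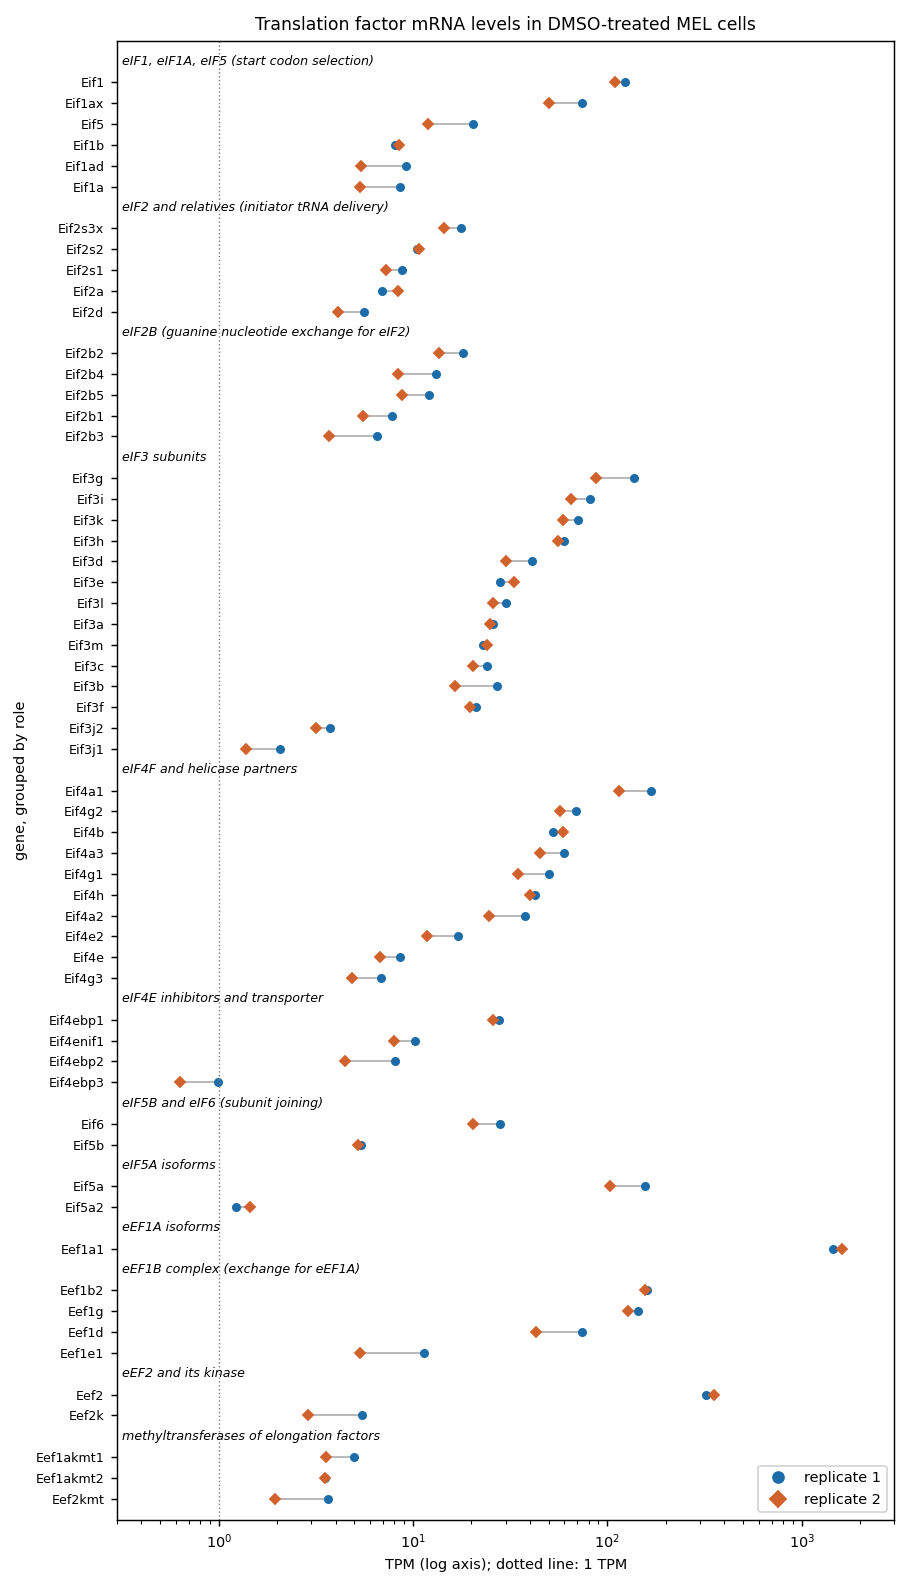
TPM (log axis) of the 58 genes above 0.1 TPM in both libraries, grouped by role, with replicate 1 as circles and replicate 2 as diamonds. Eef1a1 and Eef2 stand at the right of the plot, and most diamonds lie left of their circles, as they do for protein-coding genes in general on this scale.

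Elongation was led by 2 genes. Eef1a1 (chr9:78478449-78489151, GRCm38) encodes eEF1A, the GTPase that carries aminoacyl-tRNA to the ribosome. It stood at 1445 TPM in replicate 1 and 1606 TPM in replicate 2 (1525 ± 114, SD, n = 2), rank 6 among protein-coding genes, and held 37.6% and 44.4% of the TPM of all 62 genes. Its tissue-restricted paralog Eef1a2, the eEF1A of muscle and neurons, had 0 counts in both libraries, which bounds it at the 3-count floors given above. Eef2 (chr10:81176631-81182498) encodes eEF2, the translocase that moves the ribosome along. It stood at 321 and 354 TPM (337 ± 23.6). The ratio of Eef1a1 to Eef2 was 4.51 in replicate 1 and 4.54 in replicate 2, so the genes kept their proportion across the libraries. With transcripts annotated as protein coding alone the ratio was 3.44 in both, because a processed transcript (Eef1a1-204) held 21.2% and 22.4% of Eef1a1.

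The eEF1B complex reloads eEF1A with GTP. Its catalytic subunit gene Eef1b2 stood at 160 and 156 TPM, and Eef1g, the gamma subunit, at 144 and 128 TPM. Eef1d, a further exchange subunit, stood at 74.2 TPM in replicate 1 and 43.2 in replicate 2 (58.7 ± 21.9), below both others in each library. Eef1a1 exceeded Eef1b2 by 9.05-fold and 10.3-fold in TPM, and by 13.8-fold and 15.9-fold in coding transcripts alone. In coding transcripts Eef1b2, at 79.7 and 76.9 TPM, lay below Eef1g, at 133 and 115 TPM. Eef1e1, whose product is a scaffold of the multi-tRNA-synthetase complex and not an exchange factor despite its name, was the lowest of this group at 11.4 and 5.36 TPM.

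Enzymes that modify elongation factors were low. Eef2k, the kinase that inactivates eEF2, stood at 5.45 and 2.89 TPM, and Eef2 exceeded it by 58.8-fold in replicate 1 and 122-fold in replicate 2. The lysine methyltransferase genes Eef1akmt1, Eef1akmt2 and Eef2kmt lay between 1.95 and 4.99 TPM in the libraries. Eef1akmt3 had 19 counts in replicate 1 and 3 in replicate 2, and was the only member with counts in both libraries whose level stayed under 0.1 TPM. It overlaps Mettl1 on the opposite strand by 100 bases, and whether counting used strand is not given in the sources used here, so its few counts are uncertain. Of the genes that build the diphthamide residue of eEF2, 6 of 7 reached 1 TPM in both libraries, the highest being Dph3 at 9.24 and 6.85 TPM and the exception Dph6 at 1.25 and 0.8 TPM.

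Start codon selection depends on eIF1, eIF1A and eIF5. Eif1 led at 123 and 110 TPM (117 ± 9.56), and its paralog Eif1b followed at 8.1 and 8.51 TPM, a ratio of 15.2 in replicate 1 and 12.9 in replicate 2. In coding transcripts alone that ratio was 7.49 and 6.52. Eif5, the GTPase-activating partner of eIF2, stood at 20.3 and 12 TPM. Eif1a, one of a pair of genes for eIF1A, had the lowest mean of the group, at 8.59 and 5.34 TPM, though Eif1b lay below it in replicate 1. The other, Eif1ax, appeared far higher at 73.7 and 50.1 TPM. Most of that was a 416-nt transcript annotated as a retained intron. By counts it was the smaller part, with 4185 and 4493 against 9033 and 12296 for the coding transcript. In coding transcripts alone Eif1ax stood at 7.46 and 6.13 TPM, close to Eif1a (ratio 1.01 ± 0.198, n = 2).

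eIF2 carries the initiator tRNA as a complex of 3 subunits. The gamma subunit gene Eif2s3x was highest at 17.7 and 14.4 TPM, followed by the beta subunit gene Eif2s2 at 10.5 and 10.7 and by Eif2s1, for the alpha subunit whose phosphorylation halts initiation, at 8.83 and 7.28. Ranges of neighbouring subunits in this order did not overlap. Eif2s3x exceeded Eif2s1 by 2.00-fold in replicate 1 and 1.98-fold in replicate 2. Eif2a, a separate factor that can also bind initiator tRNA, stood at 6.9 and 8.34 TPM. Eif2d, another alternative factor for initiator tRNA, was the lowest of the group at 5.59 and 4.13 TPM. In coding transcripts alone Eif2a was lower, at 3.29 and 3.2 TPM, than Eif2d, at 4.54 and 3.37 TPM. The exchange factor eIF2B, which recharges eIF2 with GTP, has 5 subunit genes, and all lay between 3.71 and 18.1 TPM. Eif2b2 was highest at 18.1 and 13.6 TPM and Eif2b3 lowest at 6.53 and 3.71. Only 33.7% of the Eif2b2 level was in coding transcripts, however, and on that measure Eif2b5 led with 12.1 and 8.77 TPM. That measure leaves out Eif2b4 transcripts that are not in the annotation used, and Eif2b4 as a whole stood at 13.15 and 8.37 TPM.

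eIF3 is the largest initiation factor, a scaffold that binds the small subunit, and all 14 of its genes here passed 1 TPM. Eif3g, an RNA-binding subunit, stood highest at 137 and 87.9 TPM (112 ± 34.4), followed by Eif3i at 81.0 and 64.9 and Eif3k at 70.7 and 59.4. By mean level the other core subunit genes ran from Eif3h at 59.6 and 56.0 TPM down to Eif3f at 21.1 and 19.6, while in replicate 2 Eif3b was lower still at 16.5 TPM (27.0 in replicate 1). Eif3j2 at 3.75 and 3.17 TPM and Eif3j1 at 2.06 and 1.39, both for the loosely bound subunit, were lowest. They are near-identical copies, so how reads were shared out between the pair is uncertain. In coding transcripts alone Eif3j1 lay under 1 TPM, at 0.97 and 0.71. Of the 13 neighbouring pairs in the order of mean level, 8 had overlapping ranges. The gaps without overlap lay below Eif3g, Eif3h, Eif3a, Eif3f and Eif3j2. From Eif3g to the lowest core subunit of each library, mRNA levels within 1 complex differed by 6.47-fold in replicate 1 (Eif3f) and 5.34-fold in replicate 2 (Eif3b).

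eIF4F joins the cap-binding protein eIF4E, the scaffold eIF4G and the helicase eIF4A. The helicase gene Eif4a1 (chr11:69666936-69672423) led at 168 and 114 TPM (141 ± 37.8). The cap-binding gene Eif4e (chr3:138526179-138559696) stood at 8.54 and 6.76 TPM, and Eif4a1 exceeded it by 19.6-fold and 16.9-fold. Eif4g1 stood at 49.9 and 34.6 TPM, between the helicase and the cap-binding gene, and its paralog Eif4g3 at 6.86 and 4.84. Eif4g2, a scaffold that does not bind eIF4E, was at 68.7 and 57.4 TPM. Eif4a2, the other cytoplasmic helicase, stood at 37.9 and 24.6 TPM, of which 17.2% was in coding transcripts. Eif4a3, a helicase of the exon junction complex, was at 59.5 and 45.2 TPM. The helicase cofactor genes were Eif4b, at 52.7 and 58.8 TPM, and Eif4h, at 42.5 and 40.0 TPM. The second cap-binding gene Eif4e2, whose product represses translation of some mRNAs, exceeded Eif4e in both libraries at 17.1 and 11.8 TPM. The oocyte form Eif4e1b and the third cap-binding gene Eif4e3 had 0 counts in both libraries. Eif4e3 lies within Gm20696 on the same strand, whose row held 109 and 107 counts, so reads may have been assigned to either.

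Of the eIF4E-binding repressors that mTOR switches off, Eif4ebp1 was the highest at 27.6 and 25.8 TPM. That was 3.23-fold and 3.81-fold above Eif4e. Eif4ebp2 stood at 8.06 and 4.48 TPM, below Eif4ebp1 in both libraries. Eif4ebp3 was the lowest at 0.99 and 0.63 TPM, from 141 and 146 counts, and is the 1 gene of the 62 whose count the authors' posterior standard deviation marks as uncertain (7.55% and 9.29% of the count). It lies within the protein-coding gene AC115631.1 on the same strand, which had no row, so its counts may include reads of that gene. The eIF4E transporter gene Eif4enif1 stood at 10.3 and 8.03 TPM.

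Late initiation and the eIF5A step closed the list. Eif6, for the factor that keeps free large subunits apart, stood at 28.1 and 20.4 TPM and Eif5b, for the GTPase that joins the subunits, at 5.41 and 5.19. Eif5a (chr11:69916714-69921958), whose hypusine-bearing product relieves stalled ribosomes, stood at 156 and 103 TPM. Its paralog Eif5a2 was lower at 1.23 and 1.45 TPM, 126-fold and 70.8-fold below. The enzymes that make hypusine, Dhps at 3.63 and 2.72 TPM and Dohh at 14.2 and 10.2, were both expressed.

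The transcript tables changed the picture for a few genes. Among 36 of the genes with several annotated transcripts and 1 TPM or more in both libraries, 30 (83.3%) had the same leading transcript in both, against 5628 of 6058 protein-coding genes (92.9%). The 6 that differed were Eef2k, Eif2b2, Eif3j1, Eif4g1, Eif4g3 and Eif5. Only in Eif5 did the lead pass between a pair of coding transcripts: Eif5-201 held 56.4% and 49.1%, and Eif5-202 held 43.6% and 50.9%. In Eef2k and Eif2b2 a coding transcript led in replicate 1 and a retained intron transcript in replicate 2. For Eef2k the coding Eef2k-204 held 39.0% and 27.2%, and Eef2k-206 held 32.5% and 39.0%. In Eif3j1, Eif4g1 and Eif4g3 a transcript not annotated as coding led in replicate 1 and a coding one in replicate 2. Transcripts annotated as retained intron, processed transcript or nonsense-mediated decay held a median of 18.5% and 21.3% of the level of these 36 genes, against 12.9% and 10.5% over all 6058. The size of this difference between the gene sets was not tested.

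In 8 genes transcripts annotated as protein coding held under 50% of the TPM, a share not computed here over all protein-coding genes. They held 11.0% in Eif1ax, 17.2% in Eif4a2, 33.7% in Eif2b2, 34.1% in Eif5b, 42.6% in Eif2a, 48.7% in Eif3j1, 49.7% in Eef1b2 and 49.8% in Eif1. Shares of counts, which are not per length, differed. The coding Eif1ax-201 held 9033 of 13218 counts in replicate 1 and 12296 of 16789 in replicate 2. Likewise, Eif5b-201 held 3296 of 4401 and 5559 of 6737. In Eif4a2 the leading coding transcript Eif4a2-202 held 3709 of 10232 and 4160 of 10890. In coding transcripts alone the median level of the 62 genes was 11.7 TPM in replicate 1 and 9.51 in replicate 2. The order changed most for Eif1ax, from rank 12 to rank 40 of the 62, and for Eif4a2, from rank 20 to rank 44. Eif4a1 exceeded Eif4a2 by 22.0-fold and 25.0-fold in coding transcripts, against 4.43-fold and 4.65-fold for whole genes. Eif4a2 hosts several snoRNA genes in its introns, and 24 of its transcripts were listed, so the division among them is uncertain. This measure was chosen after the values were seen, since short noncoding transcripts weigh heavily in a level per length.

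**Figure D2:**
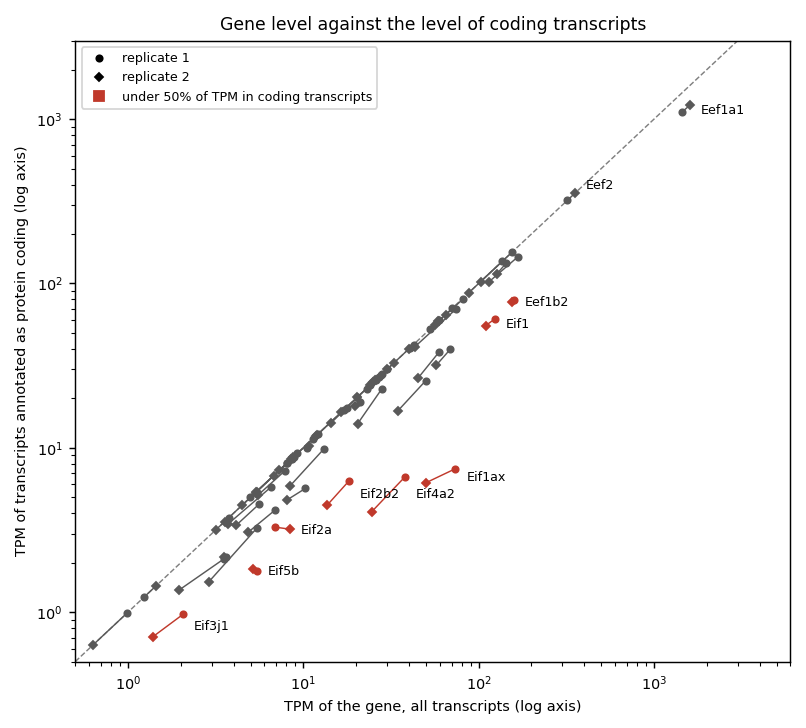
TPM of transcripts annotated as protein coding against TPM of the whole gene, both on log axes, with replicate 1 as circles and replicate 2 as diamonds joined by a line. The dashed line marks equal values, and the 8 genes below 50% (red) fall under it, with Eif1ax at 7.46 and 6.13 TPM and Eif4a2 at 6.63 and 4.09 TPM the farthest.

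Between the libraries, no translation factor gene was 1.5-fold or more higher in replicate 2 and 3 were lower. In the 59 genes that had 10 or more counts in either library, the 0 higher compare with 8.09% of 12107 such protein-coding genes, and the 3 lower (Eef1akmt3, Eef1e1 and Eif4ebp2) with 9.33%. At 2-fold there were 0 higher and 1 lower, Eef1akmt3, where all protein-coding genes gave 2.83% and 3.18%. Of the 56 genes with 1000 or more counts, 0 were higher and 2 lower by 1.5-fold, against 4.79% and 4.17% of deeply counted protein-coding genes. The 59 log2 ratios had a median of -0.10, with the middle 50% between -0.31 and 0.18, where all protein-coding genes had a median of 0.02. By sign, 27 lay above 0 and 32 below, where 6304 of the 12107 protein-coding genes lay above 0 and 5803 below. Scaling by total counts in place of TMM gave 23 above and 36 below, and 4 genes with ratios near 0 (Eif2s1, Eif2s3x, Eif3k and Eif4g2) changed sign between scalings of counts. With 1 library on each side these are descriptions of the spread.

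Eef1e1 had 2404 counts in replicate 1 and 1872 in the deeper replicate 2, a log2 ratio of -0.81 (95% counting interval -0.90 to -0.72), which is 1.75-fold lower. Eif4ebp2 had 2628 and 2392 counts, a log2 ratio of -0.59 (-0.67 to -0.51), which is just past 1.5-fold lower. It fell short of 1.5-fold with DESeq2 size factors or with no count minimum. Just outside the threshold, Eef2k had 3274 and 3012 counts and a log2 ratio of -0.57 (-0.64 to -0.50), and it passed 1.5-fold with scaling by total counts or with a minimum of 100 counts. Eef1akmt3, with 19 and 3 counts, had a log2 ratio of -2.89 and a wide interval from -5.51 to -1.35. The intervals cover counting error only. At the other end, Eif3e (0.51), Eif5a2 (0.51) and Eif2a (0.49) had the highest ratios, all short of 1.5-fold.

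**Figure D3:**
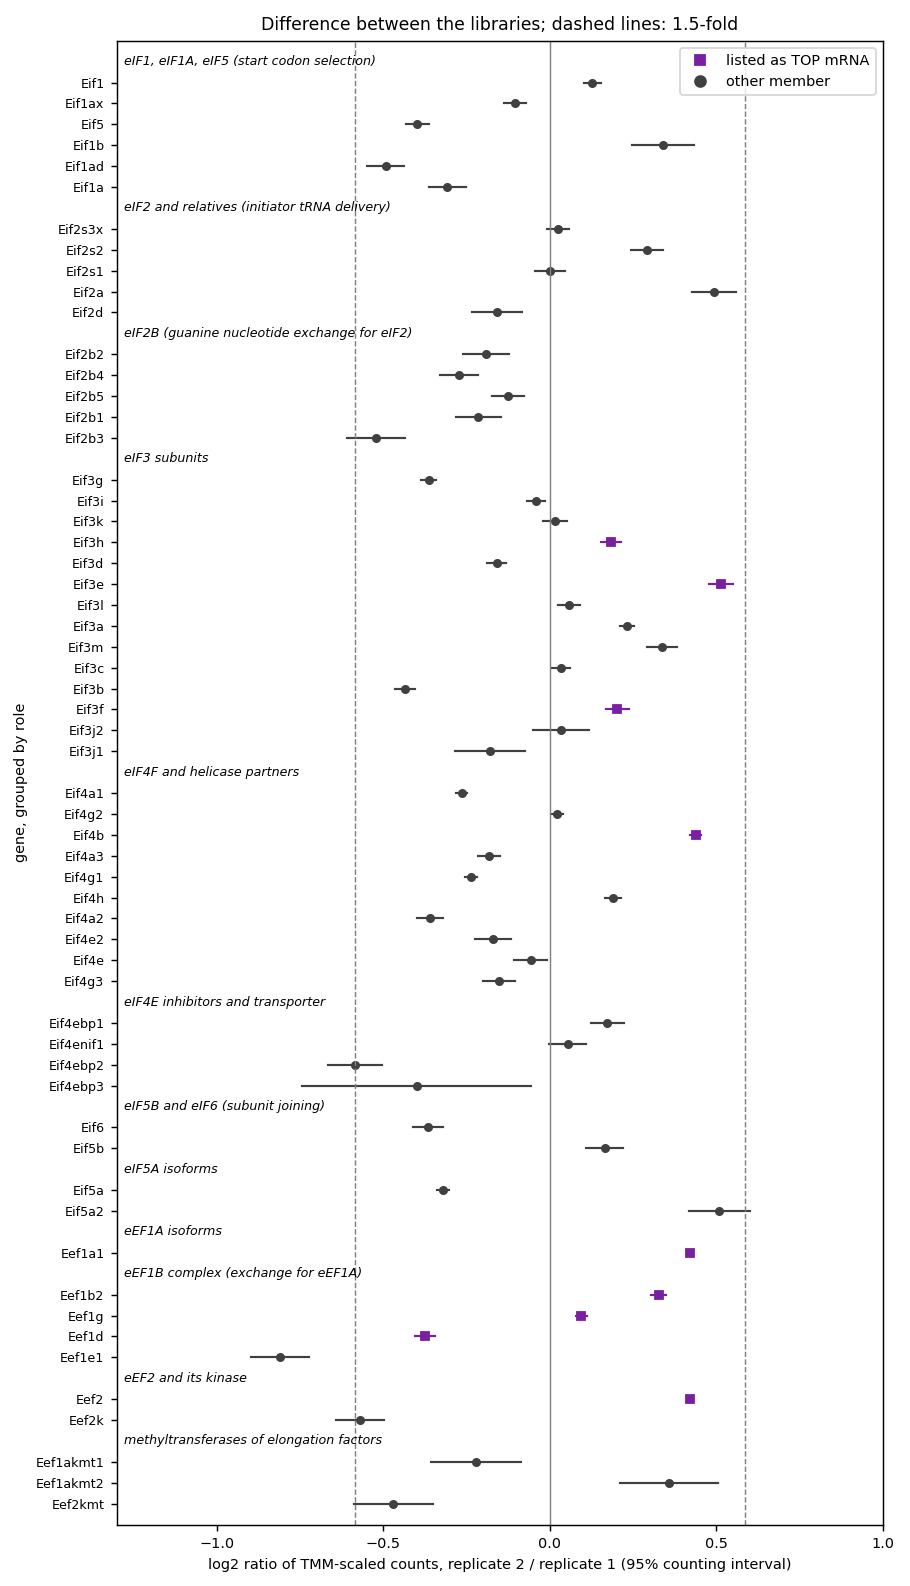
Log2 ratio of TMM-scaled counts, replicate 2 over replicate 1, with 95% counting intervals, for 58 genes by role. Purple squares mark the 9 genes listed as TOP mRNAs, dashed lines mark 1.5-fold, and Eef1akmt3 at -2.89 is not drawn. All 5 eIF2B subunit genes lie left of 0, and 8 of the 9 squares lie right of it.

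All 5 eIF2B genes had ratios below 0, from -0.52 for Eif2b3 to -0.13 for Eif2b5, with a median of -0.21. In the eIF3 complex 9 of 14 genes lay above 0 and 5 below, from -0.44 for Eif3b to 0.51 for Eif3e, so subunits of the complex did not share a direction. Among the 10 expressed genes of the eIF4F group 7 lay below 0, with Eif4a2 lowest (-0.36) and Eif4b highest (0.44). Eef1a1 and Eef2 shared nearly the same ratio, each 0.42, while Eef1d, at -0.37, and Eef1e1 lay below 0. Counting intervals for Eef1a1 (0.42 to 0.43) and Eef2 (0.41 to 0.43) are narrow because their counts were high, at 465733 and 851310 for Eef1a1 and 227591 and 416487 for Eef2.

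The 9 genes known from textbooks as TOP mRNAs (Eef1a1, Eef1b2, Eef1d, Eef1g, Eef2, Eif3e, Eif3f, Eif3h and Eif4b) were listed after the values were seen, and their split is a description only. Their median log2 ratio was 0.33, with 8 of 9 above 0 and Eef1d the exception, whereas the 50 other genes had a median of -0.16, with 19 above 0. The 81 ribosomal protein genes with counts, which are TOP mRNAs as a class, had a median of 0.18, with 72 above 0, and 20 cytosolic aminoacyl-tRNA synthetase genes a median of 0.10. On log2 (TPM + 1) the signs moved with the general shift: 4 of the 9 lay above 0 and 7 above the median of all protein-coding genes on that scale (-0.13). On that scale the medians were -0.04 for the 9 genes and -0.37 for the other 50. Globin and other erythroid mRNAs were also higher in replicate 2, as given above.

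**Figure D4:**
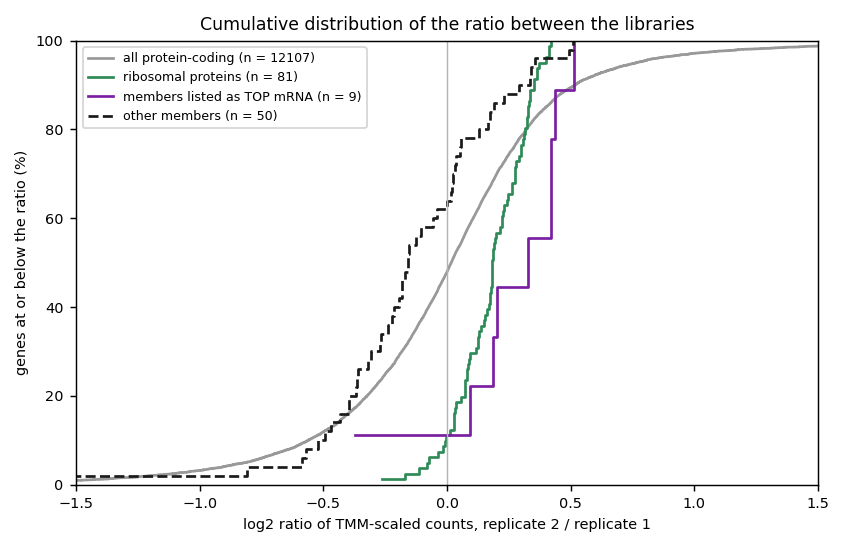
Percent of genes at or below each log2 ratio (replicate 2 over replicate 1, TMM-scaled counts) for all protein-coding genes, ribosomal protein genes, the 9 TOP-listed genes and the 50 other translation factor genes. The TOP-listed curve, with a median of 0.33, lies right of the grey curve of all protein-coding genes over most of its range, and the dashed curve, with a median of -0.16, lies mostly left of it.

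Partner genes outside the Eif and Eef names were drawn from fixed lists of 43 genes, of which 42 had 10 or more counts. Of these 2 were 1.5-fold or more higher in replicate 2 and 1 lower, where 8.09% and 9.33% of protein-coding genes were, and their median log2 ratio was -0.01. The higher ones were Pdcd4, an inhibitor of the eIF4A helicase, at 7.64 and 10.6 TPM (log2 ratio 0.77), and Mknk1, a kinase of eIF4E, at 7.28 and 8.54 TPM (0.60). The lower one was Dph1, of diphthamide synthesis, at 5.13 and 2.69 TPM (-0.65). Pabpc1, the poly(A)-binding protein that contacts eIF4G, was the most abundant initiation partner at 209 and 208 TPM, above Eif4a1 and Eif4g1. Among release and recycling factors, Abce1, which splits ribosomes after termination, had the highest mean, at 14.1 and 11.8 TPM, with Hbs1l above it in replicate 2 at 12.6 TPM, and Gspt2 had 0 counts in both. In the list for mTOR signalling to translation, Rps6, itself a ribosomal protein gene, led at 349 and 382 TPM and Rps6kb2 was lowest at 2.26 and 1.85. Of 9 mitochondrial translation factors, Tufm was highest at 17.9 and 12.1 TPM and Mtrf1 lowest at 0.3 and 0.26, so the mitochondrial elongation factor stood far below its cytosolic counterpart Eef1a1.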

How the data were processed

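Total RNA libraries of 1 group (replicates 1 and 2) were analysed. The authors used mm10 with GENCODE M4, per the deposited readme. The aligner, the quantification program and the use of strand were not given in the sources used here. The authors' tables, per the file headers, hold estimated counts per gene and transcript, TPM, FPKM, posterior means, posterior standard deviations (a score of the count's uncertainty) and the percent of a gene's TPM in each transcript. Spread was judged from these deposited values. Names, types and coordinates (1-based) came from GENCODE M21 on GRCm38, matching 42462 of 43346 Ensembl rows.

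Estimated counts were rounded and scaled by TMM in edgeR 4.0.16 (R 4.3.3) over genes that had 10 or more counts in either library. Log2 ratios had 0.5 added, with exact (Clopper-Pearson) 95% intervals. Their calculation was checked on simulated counts that held counting error only, which cannot test the spread between real libraries. DESeq2 1.42.0 size factors were an alternative. A gene was uncertain where the posterior standard deviation passed 5% of its count. Reads carried no molecular identifiers and may repeat a molecule, so intervals and floors cover counting error only. With 1 group no test between conditions was possible. Named genes were the highest and lowest of each role group, genes past 1.5-fold, genes under 1 TPM, and up to 4 per partner list. The rule for the members reads names only, but the rule, the lists and the tests were chosen with earlier results of these data known. The value of 1 marker gene is not reported here singly.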

Additional observations from a re-analysis of the deposited data

How the results depend on the processing

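The number of genes at 1 TPM or more stayed between 46 (at 5 TPM) and 58 (at 0.5 TPM or 1 FPKM), and was 57 to 57 with either library left out. The median level was 15.4 TPM, 12.8 to 17.9 with a library left out, but 61.4 in FPKM, another unit, and 10.6 in coding transcripts alone, an alternative added after seeing the data. The share of nuclear protein-coding genes was 3.56% by counts, and 2.85% to 2.91% by TPM with a library left out. The median log2 ratio was -0.019 with no count minimum, where genes with 0 counts enter, -0.32 on log2 (TPM + 1) and -0.38 on log2 (TPM + 0.1). Relative to protein-coding genes at 1 TPM or more, log2 (TPM + 1) gave -0.12, an alternative added after seeing the data. On both TPM scales 14 genes were 1.5-fold or more lower in replicate 2, against 3 on counts and 1 at 2-fold. Of protein-coding genes, 6.26% on log2 (TPM + 1) and 15.3% on log2 (TPM + 0.1) were that much lower. These shares include genes at low TPM, whose ratios the added 1 draws towards 0. On log2 (TPM + 1) the median was -0.13 over all of them and -0.20 over those at 1 TPM or more in both libraries. Eif4ebp2 was not past 1.5-fold with DESeq2 size factors or with no minimum, which left 2 genes lower, and total counts gave 4, adding Eef2k, which a minimum of 100 counts also added. No gene was 1.5-fold higher under any scaling run. A tract was found in 14 genes when it could start within 10 bases of the annotated start, against 2 at the start. No paired analysis was possible because there is 1 group. Depth limits genes with few counts, such as Eef1akmt3.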

Other observations

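Several translation factor genes host snoRNA genes, short RNAs that guide modification of rRNA, in their introns, and within Eif4a1, Eif4g2 and Eif4a2 some of these rows held many counts. Within Eif4a1, Gm25835 had 42363 counts in replicate 1 and 33213 in replicate 2 (log2 ratio -0.80) and Gm22988 had 13136 and 9214 (-0.96), while Eif4a1 itself had 62981 and 71570 (-0.27). Gm24029, the third snoRNA gene of Eif4a1, had 2493 and 3839 (0.17). Within Eif4g2, Gm23262 had 47689 and 48956 counts (-0.41), more than its host in replicate 1 (43791) and fewer in replicate 2 (60654). Within Eif4a2, Gm26447 had 10373 and 7782 counts (-0.86), beside 10232 and 10890 for the host (-0.36). Snora81, also in Eif4a2, had 572 and 1125 counts (0.53). Snord37 in Eef2 (64 bases), Snord66 in Eif4g1 (75 bases) and Snord2 in Eif4a2 (69 bases) had 0 counts in both libraries. All are shorter than the snoRNA genes with counts named above, of which Gm26447 was the shortest at 129 bases. A longer one, Snora41 in Eef1b2 at 132 bases, had only 1 and 2 counts. Whether RNAs as short as these were captured was not tested. Their 0 counts are therefore not read as absence of expression. Reads of a snoRNA and of its host intron cannot be told apart in these tables.

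Of 6 annotated pseudogenes with initiation factor names, Eif4a-ps4 was the only one above 1 TPM in both libraries, at 14.5 and 11.4 TPM from 3722 and 4835 counts. Eif1-ps3 had 0 counts in both. How reads were divided between Eif4a-ps4 and the Eif4a genes is uncertain.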
